A study of Mus musculus with 4 samples.

Results

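The genes described here are the nuclear genes for subunits of the mitochondrial respiratory chain and ATP synthase, measured in sorted cells of the mouse aorta. They were taken by symbol: protein-coding genes whose names start with Ndufa, Ndufb, Ndufc, Ndufs or Ndufv and a number, Sdha to Sdhd, and names starting with Uqcr, Cox4 to Cox8 or Atp5. The rule found 87 genes in the annotation, and 82 of them were among the 32948 genes of the table. Of these, 38 belong to complex I, 4 to complex II, 8 to complex III, 14 to complex IV and 18 to complex V, the ATP synthase. The remaining 5 (Cox6a2, Cox7b2, Cox8b, Cox8c and another Atp5o entry) had no row and are not analysed here. A filter on low counts left 79 of the 82 for the comparisons, and Ndufa4l2, Cox4i2 and Cox6b2 did not pass it.

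All animals carried Wnt1-Cre and the Rosa26-mTmG reporter, in which a cell makes red tdTomato until Cre acts and green GFP from then on, as do its descendants. Wnt1-Cre acts in the embryonic neural crest, so that GFP marks a history of Cre and not a cell type. Ascending aorta and arch were dissociated, and GFP and tdTomato cells were sorted from 1 female sample and from 2 male samples pooled. Each of the 4 fractions gave 1 library. Values below run in the order female GFP and tdTomato, then male GFP and tdTomato. Neither sex nor colour is replicated within the other, and sex, suspension and pooling cannot be told apart.

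The libraries held between 10094167 counts (male GFP) and 13911111 counts (female tdTomato). Male GFP stood apart, with 9517 genes at 10 counts or more against 12008 in female GFP and 16227 and 15669 in the tdTomato libraries. The submitters labelled the cells as vascular smooth muscle, and 6 of 6 smooth muscle markers were detected in each library, with Acta2 (smooth muscle actin) at 6738, 4889.7, 4083 and 3692 CPM (counts scaled to library size). Markers of other cells differed between fractions. Summed over 7 endothelial markers the level was 15.6, 375, 12.7 and 243 CPM, over 6 fibroblast markers 3690.3, 3316, 573 and 4053 CPM, and over 5 pericyte markers with a row 546, 829, 2146 and 595 CPM. Members of a list did not all follow its sum. The female fibroblast sums were mostly Dcn and Lum, while 3 of the 6 markers were at least 2-fold lower in female GFP and 0 higher. In male GFP Rgs5 gave 1689.9 CPM of the pericyte sum. Of the 5 pericyte markers 3 were at least 2-fold higher and 1 lower in male GFP than in male tdTomato. In such bulk fractions fewer cells of a type and less RNA per cell cannot be told apart.

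In oxidative phosphorylation complex I takes electrons from NADH and complex II from succinate. Complex III passes them to cytochrome c and complex IV to oxygen. Complexes I, III and IV pump protons across the inner mitochondrial membrane, and complex V uses their return to make ATP. Complex II is made wholly from nuclear genes, while the other complexes join nuclear subunits to a few made from mitochondrial DNA. Most subunits of complex I are accessory proteins around a catalytic core, and some subunits of complex IV exist as tissue isoforms.

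Together the 82 genes held 2.48%, 2.35%, 1.23% and 1.86% of all counts. Their summed level was 26852, 21897, 13258 and 17191 CPM. Female GFP was thus the highest library and male GFP the lowest, a ratio of 0.494 between the GFP libraries. GFP stood above tdTomato in the female pair (ratio 1.23) and below it in the male pair (0.771). On scaled CPM, complexes I, III, IV and V shared this order. Their ratios were 1.30, 1.10, 1.27 and 1.15 in the female and 0.829, 0.753, 0.759 and 0.680 in the male pair. On unscaled shares of all counts the female order reversed for complex III (0.28% in GFP, 0.296% in tdTomato) and complex V (0.629% and 0.639%). Complex II, the least abundant at 296, 214, 256 and 160.3 CPM, had a higher sum in GFP in both pairs. In the male pair that rested on Sdhd, at 170.1 against 7.48 CPM, and the median log2 ratio of its 4 genes was -0.22, with 2 lower in GFP.

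**Figure D1:**
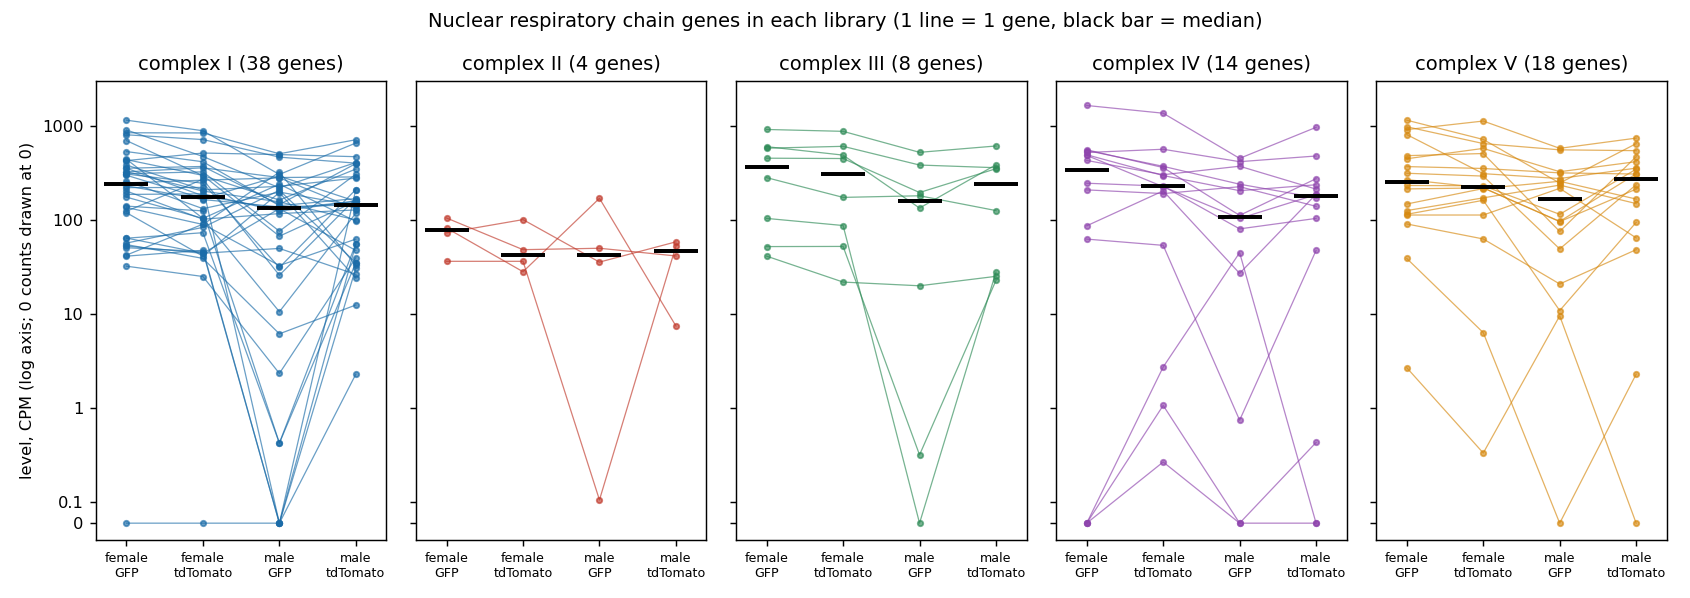
Level of each of the 82 genes (vertical axis, CPM on a log scale, 0 counts drawn at 0) in the 4 libraries (horizontal axis), 1 panel per complex, 1 line per gene and a black bar at the median. In complexes I to V, 4, 1, 2, 2 and 1 genes lie at 3 counts or fewer in male GFP.

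The small accessory subunits were the most abundant transcripts per length. On CPM per kilobase of transcript, averaged over the 4 libraries, Atp5md (a small ATP synthase membrane protein) measured 1887, Cox6c (a nuclear subunit of complex IV) 1829, Ndufa1 (an accessory subunit of the complex I membrane arm) 1734 and Uqcr11 (the smallest complex III subunit) 1645. The level of Ndufa1 (ENSMUSG00000016427) was 846, 842, 506 and 713 CPM, that of Uqcr11 917, 876, 524 and 612 CPM, and that of Atp5md 979.7, 649.7, 557 and 546 CPM. Each of these 3 was lowest in a male library and differed between GFP and tdTomato by no more than 1.51-fold. Cox6c varied more, at 1649, 1365, 452 and 966 CPM. Catalytic subunits were less abundant per length: Atp5b, the beta subunit that carries the ATP-forming site, averaged 117 and Ndufs1, the largest complex I core protein, 16.5 CPM per kilobase. Other small subunits followed, such as Ndufa2 (1151, 889, 305 and 658 CPM), Ndufa4, counted here by name with complex I though now placed in complex IV (805, 716, 466 and 402 CPM), Uqcrb (580.1, 607, 384 and 359.7 CPM), Cox7c (522, 565, 417 and 479 CPM) and Atp5l (914, 1127, 578 and 742 CPM).

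Within the female pair the subunits kept close to each other. Of 79 genes 53 were higher and 26 lower in GFP, with a median log2 ratio of 0.25 (GFP over tdTomato, SD across genes 0.86). GFP was at least 2-fold higher for 9 genes (22.0% of all 15055 genes tested were) and at least 2-fold lower for 4 (37.8% of all tested). Thus 66 of the 79 (83.5%) lay within 2-fold, against 40.2% of all genes tested. Among genes with a mean over the 4 libraries of 50 CPM or more the figures were 84.8% of 66 subunits and 61.8% of 3412 genes. Among the 490 of those genes with transcripts under 1000 nt it was 74.1%. These are single libraries, so the counts have no test. With DESeq2's size factors in place of TMM scaling, 15 were at least 2-fold higher and 2 lower.

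The male pair was spread far more widely, and its ratios had an SD of 2.98. The median log2 ratio was -0.37, with 26 genes higher and 53 lower in GFP. GFP was at least 2-fold higher for 10 genes (21.5% of all tested) and at least 2-fold lower for 32 (50% of all tested), and 18 genes (22.8%) were apart by 8-fold or more, as were 40.4% of all tested. The subunits' share of 2-fold lower genes, 40.5%, was therefore below that of all genes. At a mean of 50 CPM or more it was 34.8% against 28.1%, and 36.3% among genes of that level under 1000 nt. That mean includes the male libraries, so genes high in male GFP alone can pass the cut. With the cut, the median of all tested genes went from -1.0 to 0.24. Across scalings the median of the subunits ran from -0.58 to -0.13. Their split of 2-fold higher to lower became 13 to 25 with DESeq2's size factors.

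**Figure D2:**
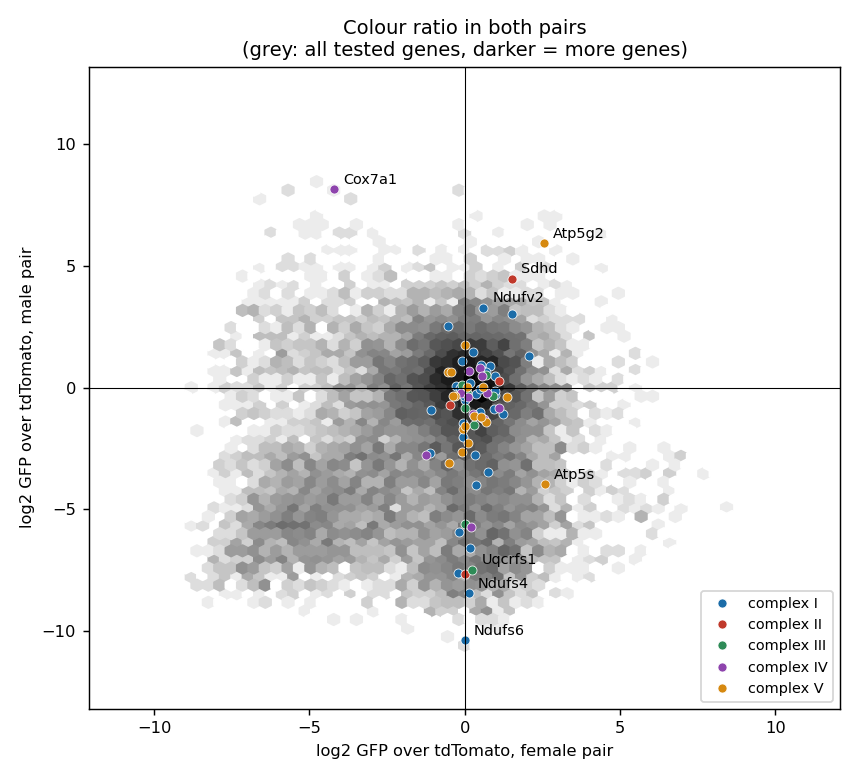
Log2 GFP over tdTomato in the female pair (horizontal axis) and in the male pair (vertical axis) for 79 subunit genes (points, coloured by complex) over all 15055 tested genes (grey, darker for more genes). Most points form a narrow vertical band near 0 on the horizontal axis, with 66 within 2-fold there and 37 within 2-fold on the vertical axis.

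Taking both pairs, 19 subunits were higher and 19 lower in GFP in each. Another 34 were higher in the female and lower in the male pair, and 7 the other way. Of all 15055 tested genes, 2508 were higher and 5479 lower in both pairs. A further 4028 were higher in the female and lower in the male pair, and 2860 the other way. In the same order the numbers were 139, 81, 212 and 57 of the 490 tested genes under 1000 nt with 50 CPM or more. Only 4 subunits were at least 2-fold higher in both pairs (5.17% of all tested), Ndufb5, Ndufa9, Sdhd and Atp5g2. At least 2-fold lower in both were 2 subunits (22.9% of all tested), Ndufb3 and Cox7a2l. Opposite 2-fold differences were seen for Ndufa6 and Atp5s (higher in female and lower in male GFP, as were 11.5% of all tested) and for Cox7a1 (the reverse, 7.75% of all tested). The edgeR quasi-likelihood test over both pairs called 0 of 15055 genes and 0 of the 79 (0.0% of all tested) at an adjusted p under 0.05. Its unadjusted p was under 0.05 for 1298 genes (8.62%) and for 0 of the 79. DESeq2 called 1157 genes (7.69%) and again 0 of the 79, of which 4 had an unadjusted p under 0.05, as did 2735 of the 15055 genes.

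Ndufb5 and Ndufa9 were the complex I genes at least 2-fold higher in GFP in both pairs. Ndufb5 (ENSMUSG00000027673), an accessory subunit of the membrane arm, measured 442, 104, 240.4 and 96.9 CPM. GFP was above tdTomato by 4.23-fold (95% counting interval 4.00 to 4.48) in the female and by 2.48-fold (2.32 to 2.66) in the male pair. The genes of this paragraph were named because they shared a direction in both pairs. The mean of both log2 ratios, 1.69 ± 0.55 (SD, n = 2 pairs), had an edgeR adjusted p of 0.796, the lowest of the 79. Ndufa9, an accessory subunit beside the ubiquinone site, measured 119.6, 41.3, 196 and 24.1 CPM. It was 2.89-fold and 8.14-fold higher in GFP (mean log2 2.27 ± 1.05, SD, n = 2 pairs, edgeR adjusted p 0.934). Ndufb9, an accessory subunit of the membrane arm, gave 1.77-fold and 1.86-fold, and Ndufv3, an accessory subunit of the NADH-binding module, 1.61-fold and 1.56-fold.

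The opposite direction was seen for Ndufb3, also in the membrane arm. It measured 124, 271, 25.9 and 169 CPM, 2.18-fold and 6.54-fold lower in GFP (mean log2 -1.91 ± 1.12, SD, n = 2 pairs, edgeR adjusted p 0.918). Ndufc2 was 2.13-fold and 1.91-fold lower, at 42.4, 90.3, 32.8 and 62.7 CPM. Ndufa6, another accessory subunit, changed sides: at 698, 296, 163 and 348 CPM it was 2.36-fold higher in female GFP and 2.14-fold lower in male GFP.

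Catalytic core subunits of complex I were far apart in the male pair. The nuclear core subunits carry the flavin and the iron-sulfur clusters and help to form the ubiquinone site, and 6 of them are described here. In the female pair all 6 were within 2-fold (median log2 -0.01). In the male pair none was, against 28.5% of all tested genes. In GFP 4 were lower and 2 higher, and 5 of the 6 were apart by at least 8-fold, as were 40.4% of all tested. Among 30 accessory complex I subunits 10 were at least 2-fold lower and 4 higher, with 3 of 30 apart by 8-fold or more. The split into core and accessory subunits was made after values were seen. The 6 core transcripts ran from 870.5 nt (Ndufs7) to 2625.5 nt (Ndufs1). Of the 26 tested subunits of 1000 nt or more, in any complex, 13 were apart by 8-fold or more. Core and accessory subunits were not matched for length or level, and the part of either was not tested.

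Ndufs3, of the ubiquinone module, measured 140.5, 125, 0.426 and 56.1 CPM, that is, 132-fold lower in male GFP than in male tdTomato (95% counting interval 51.3 to 485). Ndufs1, which holds iron-sulfur clusters of the NADH module, measured 64.1, 73.3, 0.426 and 35.1 CPM, with 809, 1096, 4 and 488 counts, 82.4-fold lower (32.0 to 304). Ndufs8, an iron-sulfur protein, had 0 counts in male GFP against 41.3, 47.7 and 30.9 CPM elsewhere, at least 96.6-fold lower than its partner. In each of these 3 genes male GFP alone was low, while the female pair stayed within 2-fold.

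The remaining core genes went both ways. Ndufv1, which binds NADH and the flavin, was 17.0-fold lower (11.1 to 27.3), at 32.3, 25.1, 2.34 and 39.7 CPM. Ndufv2, the partner of Ndufv1, was in contrast 9.82-fold higher in male GFP (8.90 to 10.9), at 136, 89.7, 323 and 32.9 CPM. Ndufs7, an iron-sulfur protein beside Ndufs8, was 5.87-fold higher (5.32 to 6.50), at 56.9, 83.5, 207 and 35.2 CPM. Subunits that sit side by side in the enzyme thus stood at opposite ends in this library.

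**Figure D3:**
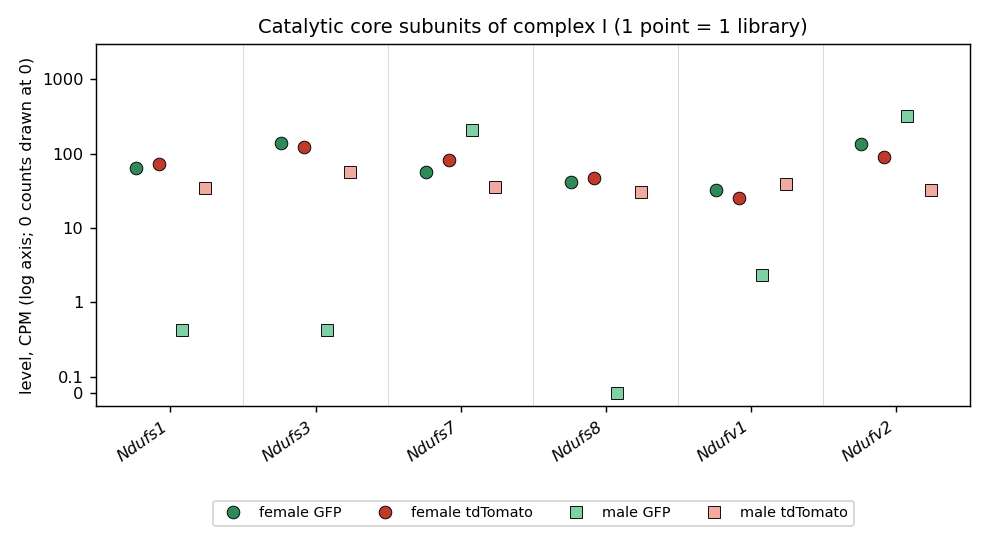
Level (vertical axis, CPM on a log scale, 0 counts drawn at 0) of 6 nuclear core subunits of complex I in each library, 1 point per library. Male GFP (light green squares) is the lowest library for 4 genes and the highest for Ndufs7 and Ndufv2, while the other 3 libraries of each gene lie between 25.1 and 140.5 CPM.

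Around the core, Ndufs6 and Ndufs4 were also at 0 counts in male GFP. Ndufs6 (ENSMUSG00000021606), a zinc-binding subunit needed late in assembly, had 2796, 3320, 0 and 2939 counts, or 221, 222, 0 and 211 CPM. The 3 other libraries agreed within 1.05-fold, and male GFP was at least 662-fold below male tdTomato and at least 693-fold below female GFP. Ndufs4 (ENSMUSG00000021764), whose loss causes the mitochondrial encephalopathy Leigh syndrome, measured 50.8, 46.2, 0 and 55.2 CPM, at least 173-fold lower. Of the 58 subunit genes that reached 50 CPM in each tdTomato library, Ndufs6 alone was at 3 counts or fewer in male GFP, 1.72% (exact 95% binomial interval 0.0436 to 9.24), against 9.55% of all 2491 genes at that level. In female GFP it was 0 of 58, against 1.41%. Most of the 58 were more abundant than that cut. At 100 CPM or more in each tdTomato library, male GFP had 1 of 52 subunit genes (1.92%, interval 0.0487 to 10.3) at 3 counts or fewer. Of all 1285 genes at that level 3.42% were. The intervals take the genes of a library as independent. At a lower tdTomato level of 20 to 50 CPM the number was 5 of 16 subunit genes in male GFP (31.2%, interval 11 to 58.7) and 27.6% of all genes.

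Length and level differed between the genes near 0 and the others. The 10 tested subunits at 10 counts or fewer in male GFP had a median transcript length of 1452.5 nt and a median level of 41.3 CPM in male tdTomato, against 718.5 nt and 169 CPM for the other 69. Within the male pair, GFP was at least 2-fold lower for 15 of 26 subunits of 1000 nt or more, and 13 of the 26 were apart by 8-fold or more in either direction. Of 53 shorter ones, 17 were at least 2-fold lower and 5 apart by 8-fold in either direction. Of all 1770 tested genes under 1000 nt, 49.0% were at least 2-fold lower and 35.4% apart by 8-fold, against 50% and 40.4% of all tested genes. The part of length, level and the smaller number of genes detected in male GFP was not tested.

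In complex II, the succinate dehydrogenase of the Krebs cycle, the 2 membrane anchors were at opposite ends in male GFP. Sdhd (ENSMUSG00000000171) measured 82.1, 28.2, 170.1 and 7.48 CPM, above tdTomato by 2.91-fold (95% counting interval 2.60 to 3.27) in the female and 22.7-fold (18.6 to 28.0) in the male pair. Both GFP libraries were above both tdTomato libraries, with a mean log2 of 3.01 ± 2.08 (SD, n = 2 pairs) and an edgeR adjusted p of 0.932. Sdhc, its partner in the membrane, measured 36.4, 36.4, 0.106 and 52.7 CPM. The value in male GFP was 1 count, 495-fold lower than in male tdTomato (88.6 to 19589.8). Sdhb, the iron-sulfur subunit, was 2.16-fold and 1.21-fold higher in GFP (105, 48.4, 50.1 and 41.5 CPM), and Sdha, the flavin subunit, 1.38-fold and 1.64-fold lower (73.1, 101, 35.7 and 58.6 CPM). Male GFP thus held the highest level of Sdhd and the lowest of Sdhc among the 4 libraries.

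Complex III showed the narrowest female pair, with 8 of 8 subunits within 2-fold. In male GFP Uqcrfs1 (ENSMUSG00000038462), the Rieske iron-sulfur protein, had 0 counts, against 104, 87.4 and 28.0 CPM in female GFP, female tdTomato and male tdTomato. It was at least 87.6-fold below its partner and at least 325-fold below female GFP. Uqcrc2, a core protein, measured 52.2, 52.4, 0.319 and 22.8 CPM. With 3 counts in male GFP it was 71.4-fold lower than in male tdTomato (95% counting interval 24.2 to 348). Its counterpart Uqcrc1 was only 1.26-fold lower. Uqcrh, the hinge protein that holds cytochrome c1, was 1.23-fold higher in female GFP and 2.88-fold lower in male GFP (602, 489.5, 134 and 387 CPM).

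In complex IV 7 of 12 tested subunits were within 2-fold in the male pair and 9 in the female pair. Cox6a1 measured 429.8, 303, 373 and 213 CPM, 1.42-fold and 1.75-fold higher in GFP, and Cox8a 209, 191, 226 and 139.8 CPM. Cox4i1, the general form of subunit 4, measured 494, 297, 205 and 237 CPM, and Cox7b 548, 372, 240.2 and 173 CPM. Cox5a, a subunit facing the matrix, was the farthest below its partner, at 62.7, 53.8, 0.745 and 47.5 CPM, 63.7-fold lower in male GFP (95% counting interval 30.7 to 159). Cox7a2l, a protein that joins complexes III and IV into supercomplexes, was lower in GFP in both pairs, at 86.8, 204, 27.1 and 188 CPM. Its folds were 2.35 and 6.91 (mean log2 -2.01 ± 1.10, SD, n = 2 pairs; edgeR adjusted p 0.937).

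Tissue isoforms were rare, with an exception in male GFP. Cox7a1 (ENSMUSG00000074218), the heart and skeletal muscle form of subunit 7a, had 0, 41, 423 and 0 counts, or 0, 2.74, 45.0 and 0 CPM. Male GFP was thus at least 209-fold above its partner, while female GFP was at least 11.5-fold below its own. The general form Cox7a2 stood at 558, 361, 112 and 275 CPM, lowest in male GFP. Cox4i2, a hypoxia-linked form of subunit 4, had 16 counts in female tdTomato, 6 in male tdTomato and 0 in both GFP libraries. Ndufa4l2, also hypoxia-linked, had 32 counts in male tdTomato and 0 elsewhere, and Cox6b2, a testis form, 4 counts in female tdTomato and 0 elsewhere.

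The marker values beside Cox7a1 were as follows. Of 8 cardiomyocyte markers 5 had a row, with a summed level of 104, 102, 154 and 97.7 CPM. In male GFP this was nearly all Ryr2, a calcium channel also made outside the heart, at 154 CPM, while Myh7, Myl2 and Tnni3 were at 0 and Tnnt2 at 3 counts. The brown adipocyte markers, 6 of 7 with a row, summed to 207, 263, 327 and 114 CPM, with Ucp1 at 0 in male GFP. Most of that sum was Fabp4, a fatty acid binding protein also made outside brown fat, at 178, 226, 315 and 103 CPM. The pericyte sum of 2146 CPM in male GFP, most of it Rgs5, was the highest of the 4 libraries, with Notch3 at 0 counts in both GFP libraries. The part of pericytes in the result was not tested.

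**Figure D4:**
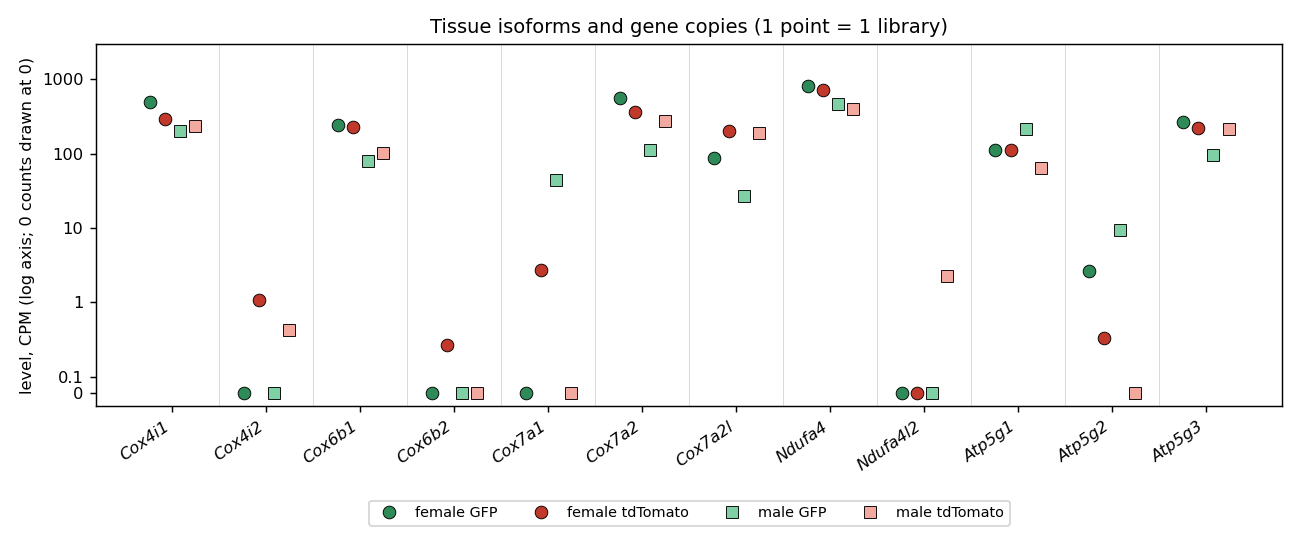
Level (vertical axis, CPM on a log scale, 0 counts drawn at 0) of general and tissue forms of complex IV subunits, Ndufa4 and its relative, and the 3 genes of the ATP synthase c subunit, 1 point per library. Cox7a1 was seen in male GFP and female tdTomato only, and the general forms Cox4i1, Cox6b1, Cox7a2 and Ndufa4 lie above 80 CPM in every library.

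The c ring of ATP synthase, the rotor through which protons pass, is made from 3 genes for the same mature protein. Atp5g3 measured 269, 219.8, 96.1 and 213 CPM and Atp5g1 113, 113, 217 and 64.6 CPM, so that Atp5g3 was above Atp5g1 in 3 libraries and below it in male GFP. Per kilobase, with transcripts of 718.5 and 2675.5 nt, the means were 278 and 47.4. Atp5g2 (ENSMUSG00000062683) was low throughout, at 34, 5, 90 and 0 counts, with GFP above tdTomato by 8.05-fold in the female (95% counting interval 3.13 to 26.4) and by at least 44.4-fold in the male suspension. Its DESeq2 adjusted p of 0.103 was the lowest of the 79 under that tool. The 3 precursors differ in the part removed on import.

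Of the ATP synthase subunits 9 of 18 were at least 2-fold lower and 2 higher in GFP in the male pair, where 50% and 21.5% of all tested genes were. In the female pair the numbers were 0 and 3, beside 37.8% and 22.0% of all tested genes. Atp5f1, the b subunit of the stator, measured 115, 162, 10.9 and 94.4 CPM, 1.41-fold lower in GFP in the female and 8.70-fold (95% counting interval 7.11 to 10.7) in the male pair. Atp5b measured 314, 293, 49.3 and 237 CPM and Atp5a1, the alpha subunit beside it, 233, 231, 115 and 347 CPM, 4.82-fold and 3.01-fold lower in male GFP while within 1.07-fold in the female pair. Atp5c1, the gamma shaft that turns within them, was 1.57-fold higher in male GFP (126, 172, 235 and 149.6 CPM). Atp5k, the small e subunit, was 6.23-fold lower (483, 509, 75.6 and 471 CPM). Atp5s, also named Dmac2l, measured 39.0, 6.35, 0 and 2.30 CPM, 6.15-fold higher in female GFP and at least 7.21-fold lower in male GFP.

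Between sexes the tdTomato libraries were close and the GFP libraries were not. Male over female tdTomato had a median log2 of -0.34 and an SD of 0.70 over the 79 genes, with 65 lower and 14 higher in the male library. None was at least 2-fold higher (20.6% of all tested) and 16 were at least 2-fold lower (21.6% of all tested). All 15055 tested genes had a median of -0.02 and an SD of 1.75. At a mean of 50 CPM or more, 15.2% of 66 subunits were at least 2-fold lower and 0 higher (SD 0.50). Of 3412 genes at that level 11.6% were lower and 9.09% higher (SD 1.07). For the 490 of them under 1000 nt it was 8.98% and 3.27% (SD 0.81). Of complex IV, 12 of 12 tested genes were lower in male tdTomato, as were 7641 of all 15055. Among the 12 were Cox7b, by 2.15-fold, and Cox6b1, by 2.19-fold. Male over female GFP had a median of -1.14 and an SD of 2.86, with 6 at least 2-fold higher (27.9% of all tested) and 45 at least 2-fold lower (40.4% of all tested). This comparison and that of the male pair share the male GFP library.

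The GFP shift between sexes was set beside that of other abundant genes. The level was the mean over the 4 libraries, so genes high in male GFP alone could pass the cut. Without a cut the median of all 15055 tested genes was -0.18. Among all 3412 tested genes of 50 CPM or more the median was 0.00 and 33.3% were at least 2-fold lower in male GFP. For the 66 subunits at that level it was -1.04 and 53.0%. Among the 490 such genes under 1000 nt it was -0.92 and 48.6%, near the values of the 66 subunits, which were of any length. Of the tested subunits at any level, the 53 under 1000 nt had -0.82 and 47.2%. The 26 of 1000 nt or more had -1.79 and 76.9%. The part of length was not tested. Of the 6 subunits at least 2-fold higher in male than in female GFP, Cox7a1 was at least 189.5-fold, Ndufs7 3.63-fold, Atp5g2 3.56-fold, Ndufa8 (an accessory subunit of the intermembrane face) 2.50-fold, Ndufv2 2.37-fold and Sdhd 2.07-fold higher. All 8 subunits of complex III were lower in male than in female GFP, by 1.51-fold (Uqcrb) or more.

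**Figure D5:**
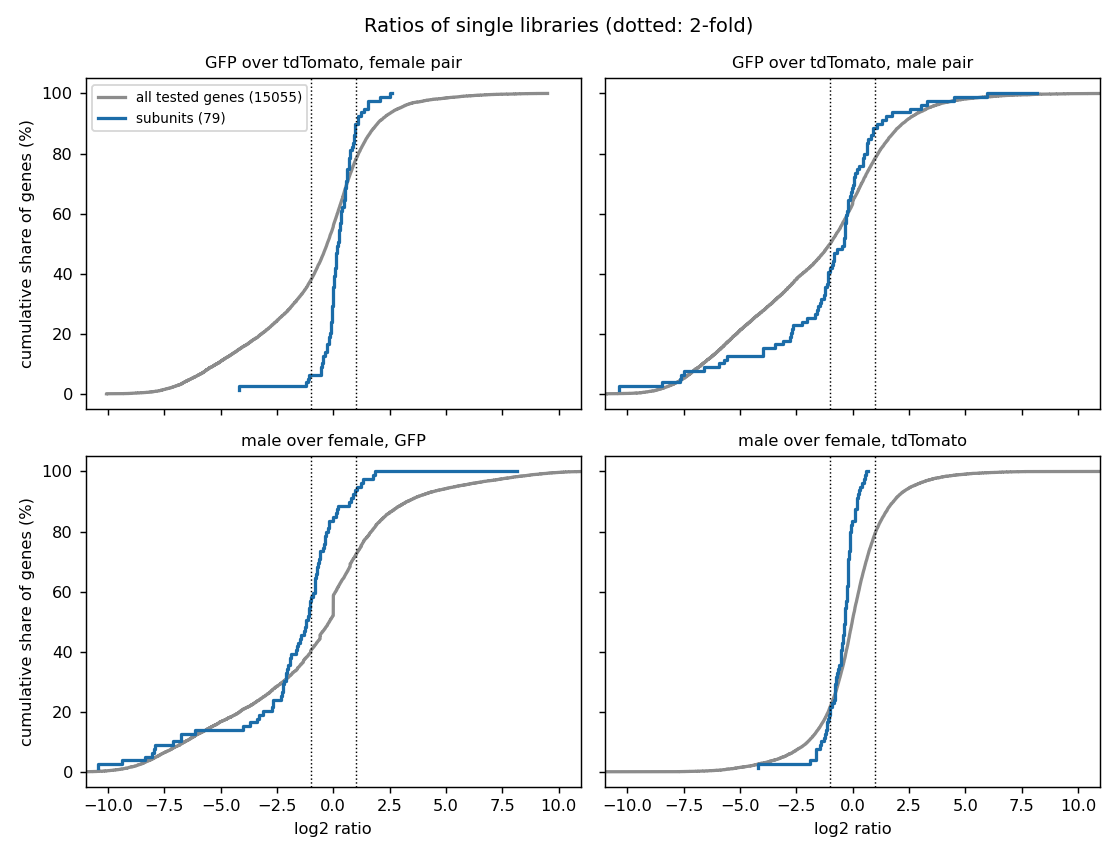
Cumulative share of genes (vertical axis, %) by log2 ratio (horizontal axis) for 79 subunit genes (blue) and all 15055 tested genes (grey) in the 4 comparisons of single libraries, with dotted lines at 2-fold. The blue curve is steep in the female pair and between tdTomato libraries (SD 0.86 and 0.70) and wide in both comparisons that hold male GFP (2.98 and 2.86).

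The profile of the subunits was shared by 3 libraries. Across the 79 genes, log2 CPM had a Pearson's r of 0.959 for both tdTomato libraries, 0.902 within the female pair and 0.486 within the male pair, and Spearman's rho was 0.953, 0.922 and 0.640. Across all tested genes r was 0.770, 0.616 and 0.476, and rho 0.794, 0.629 and 0.435. Genes are not independent replicates, and levels of all libraries share transcript length and base composition, so these values are descriptions.

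The mitochondrially encoded subunits, read in the same libraries primed with oligo(dT), gave a further view. Their 13 genes summed to 21368, 15978, 8688 and 16728 CPM, and 12 were tested. The nuclear sum over the mitochondrial sum was 1.26, 1.37, 1.53 and 1.03, so both sums were lowest in male GFP and highest in female GFP. In the male pair GFP was at least 2-fold lower for 7 of the 12 and higher for 0 (median log2 -1.35). Of all tested genes 50% were lower and 21.5% higher there. In the female pair it was lower for 0 of the 12 and higher for 1 (0.52), beside 37.8% and 22.0% of all tested genes. mt-Atp6, which forms the proton channel of ATP synthase, measured 4545, 4000.0, 2596 and 3708 CPM, and mt-Co2, the copper-bearing subunit of complex IV, 4680.3, 3303, 1199.9 and 3948 CPM.

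Genes that feed or build the chain had lower medians in the male pair than the subunits (-0.37) and than all tested genes (-1.0). The median log2 ratio of the male pair was -4.06 over 18 genes of electron carriers and ubiquinone synthesis (14 at least 2-fold lower, 3 higher), -2.13 over 39 assembly factors (21 lower, 10 higher) and -4.60 over 13 enzymes of the tricarboxylic acid cycle (9 lower, 0 higher). Of all tested genes 50% were at least 2-fold lower and 21.5% higher in that pair. In the female pair the medians of these lists were 0.20, 0.33 and 0.67. The edgeR test over both pairs called 0 genes of each list. Coq10b, a ubiquinone-binding protein, measured 61.3, 129, 0.213 and 322 CPM, and Etfb, of the electron transfer flavoprotein, 141, 65.8, 35.4 and 109 CPM. Of the assembly factors, Cox14, which acts on complex IV, measured 342, 231, 198 and 167 CPM, and Cox17, the copper chaperone of complex IV, 296, 285, 64.2 and 281 CPM, lowest in male GFP. These lists held less abundant genes, with summed levels in male tdTomato of 847 (18 genes), 1369 (46 genes) and 655 CPM (13 genes). The 82 subunits summed to 17191 CPM there. The difference between these lists and the subunits was not matched for level and was not tested.

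Transcription factors known to act on respiratory genes were detected unevenly. Nrf1 measured 0.238, 2.41, 96.6 and 6.33 CPM, highest in male GFP. Gabpa was at 36.3 and 22.7 CPM in tdTomato and had no count in either GFP library, and Yy1 measured 231, 93.6, 0.213 and 109 CPM. The coactivator Ppargc1a, at 0, 28.0, 0.319 and 0.0719 CPM, was seen mainly in female tdTomato. Of the 12 regulators listed, 10 were at 3 counts or fewer in male GFP, 7 in female GFP, 4 in male tdTomato and 0 in female tdTomato. Of all genes with a row, 64.1%, 56.9%, 44.9% and 43.5% were, in the same order.

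Promoter sequence was read from RefSeq (GRCm38.p6) for 68 of the 82 genes, in windows from 250 bases before to 50 after the start, on both strands. The NRF1 letters GCGCATGC were in 14.7% of the 68 windows and in 3.05% of 27025 windows of all genes. The letters CCGGAAG of ETS factors such as Gabpa were in 17 of the 68 and in 9.93% of all, and the YY1 letters AAGATGGCG in 10.3% and 1.64%. The ETS letters end as the YY1 letters start, but no match of one overlapped a match of another in these windows, although 5 held both NRF1 and ETS letters and 1 both ETS and YY1 letters. Of the 7 subunits at 10 counts or fewer in male GFP with a window, 0 held the NRF1, 2 the ETS (Ndufs3 and Ndufs8) and 2 the YY1 letters (Ndufs4 and Ndufs6), and of 60 others 10, 15 and 5 did. The 150 bases before the start are shown for the genes with the 3 lowest and the 3 highest ratios in the male pair among the subunits whose window was read, to set the genes at the extremes side by side. Capitals mark motif letters on either strand, and a match is a description of the letters only.
Ndufs6: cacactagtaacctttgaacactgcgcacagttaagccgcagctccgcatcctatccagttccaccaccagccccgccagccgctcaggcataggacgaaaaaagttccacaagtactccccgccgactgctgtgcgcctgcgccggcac
Ndufs4: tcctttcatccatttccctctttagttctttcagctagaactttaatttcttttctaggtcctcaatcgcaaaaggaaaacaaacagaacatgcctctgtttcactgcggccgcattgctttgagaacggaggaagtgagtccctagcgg
Ndufs8: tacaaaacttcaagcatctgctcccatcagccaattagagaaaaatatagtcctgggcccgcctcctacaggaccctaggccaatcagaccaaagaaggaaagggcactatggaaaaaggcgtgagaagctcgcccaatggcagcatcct
Cox7a1: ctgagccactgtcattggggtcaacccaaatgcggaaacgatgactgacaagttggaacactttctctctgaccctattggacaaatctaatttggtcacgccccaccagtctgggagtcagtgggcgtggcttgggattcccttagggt
Atp5g2: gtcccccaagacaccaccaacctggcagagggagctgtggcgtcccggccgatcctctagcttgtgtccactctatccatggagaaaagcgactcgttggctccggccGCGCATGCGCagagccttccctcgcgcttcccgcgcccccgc
Sdhd: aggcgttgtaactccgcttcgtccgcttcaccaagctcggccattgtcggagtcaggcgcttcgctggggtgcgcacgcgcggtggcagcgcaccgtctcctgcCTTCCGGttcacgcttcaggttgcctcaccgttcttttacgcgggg
The stretches lie at chr13:73328483-73328632, chr13:114388095-114388244, chr19:3912775-3912924, chr7:30184021-30184170, chr15:102671048-102671197 and chr9:50603850-50603999 in the order printed. Cox7a1 is on the plus strand and the others on the minus strand, and each is printed 5′ to 3′ along the gene. Atp5g2 holds the NRF1 letters on both strands in an overlapping palindrome and Sdhd the ETS letters on the opposite strand. The YY1 letters of Ndufs6 and Ndufs4 and the ETS letters of Ndufs8 lie in the windows outside these 150 bases.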

How the data were processed

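Messenger RNA of 4 sorted fractions was measured with an oligo(dT), template-switching kit (SMART-Seq v4) from 10 ng of RNA and read as pairs of 150 bases, per the labels' protocols. Reads carry no strand, so genes that overlap on opposite strands share them. Named in the submitters' processing notes are GRCm39, StringTie, HISAT2 and fastp. What counted the reads, and on which annotation release, is not given in the sources used here. By their decimals and unequal totals, the values the authors deposited are estimated counts of reads per gene, not scaled between libraries, and they were rounded here. Of the 82 genes 42 had a fractional count in some library, so reads shared with near-identical copies may have been split (Ndufb4c, beside Ndufb4, had 839, 912, 1 and 316 counts).

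Symbols and median transcript lengths came from GENCODE M21 (a GRCm38 annotation, matched by identifier for 76.5% of genes), with 2 members (Ndufb1 and Atp5md) through RefSeq symbols. Library totals were 13678668, 13911111, 10094167 and 12837085. CPM uses TMM factors of 0.923, 1.07, 0.931 and 1.08, and 3 counts are worth 0.238, 0.201, 0.319 and 0.216 CPM. Log2 ratios have a prior count of 2. Folds have none, with exact 95% binomial intervals, and against 0 counts are bounded by 3 counts. Intervals and bounds cover counting error only, since PCR reads without molecular identifiers are not independent molecules.

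Genes kept by filterByExpr (minimum 10 counts) were tested with edgeR 4.0.16 in R 4.3.3, a quasi-likelihood F test with Benjamini-Hochberg adjustment at 0.05, on colour with suspension as a block, since both colours of a pair come from 1 suspension. It has 1 residual degree of freedom and a common dispersion of 1.47, and its p-values rest on the spread between the 2 suspensions, 1 of each sex. Alternatives were limma-voom (limma 3.58.1) and DESeq2 1.42.0. The script was tested on simulated data. Ratios of single libraries have no test.

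The members and lists were chosen with earlier results of these data known. Named were the 3 most abundant members per length of each complex, those at 3 counts or fewer in a library, those most apart between sexes in GFP or between colours in both pairs, isoforms and gene copies, and of other lists the 2 most abundant and those at 3 counts or fewer. Ndufs1, Ndufs3, Ndufv1, Ndufa6, Cox5a, Atp5b, Atp5a1, Atp5c1, Uqcrc1 and the split of complex I into core and other subunits were added after values were seen, as were the splits by length and level. A gene withheld from this text is not reported here, although counts over all subunits include it.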

Additional observations from a re-analysis of the deposited data

Results flagged for a closer look

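For 3 of 79 subunits GFP and tdTomato were at least 2-fold apart in opposite directions in the female and the male pair. Of all 15055 tested genes, 11.5% were 2-fold higher in the female and lower in the male pair, and 7.75% the reverse. The subunits' median lay on opposite sides of 0. Each side of a pair is 1 library, and the difference between the pairs was not tested. The log2 ratio of GFP over tdTomato was 1.24 in the female and -1.10 in the male pair for Ndufa6. It was -4.20 and 8.17 for Cox7a1, where a library at 0 counts sets each value through the prior count. For Atp5s it was 2.59 and -3.97, with 0 counts in male GFP. The median over 79 subunits was 0.25 and -0.37.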

How the results depend on the processing

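No median changed direction: over all settings tried it ran from 0.03 to 0.37 in the female pair, from -0.58 to -0.13 in the male pair, from -1.15 to -1.03 for male over female GFP and from -0.35 to -0.33 for tdTomato. Library totals in place of TMM lowered the median of all tested genes by 0.21 and 0.20 in the colour pairs, and DESeq2's size factors raised it by 0.12 and 0.21. Of 72 alternatives of the subunit medians and counts, 68 were labelled close to the reported value. That label was broad. It took in a female pair median of 0.03 under library totals, in place of 0.25. It also took in a male pair median of -0.13 under DESeq2's size factors, in place of -0.37. Not labelled close was the female pair under DESeq2's size factors (15 subunits at least 2-fold higher and 2 lower, in place of 9 and 4). Nor was male over female tdTomato with 1 gene 2-fold higher once every subunit with 1 count was kept (in place of 0). The same comparison had 10 lower at 50 CPM or more (in place of 16), also not labelled close. Setting subunits with 0 counts at their 3-count bound, an alternative chosen after seeing the data, gave 15 in place of 16. Over all genes DESeq2 called 1157 and each other fit called 0, with the smallest edgeR adjusted p from 0.56 to 1 over scalings and filters. Without the block for the suspension edgeR called 0 (smallest adjusted p 0.232). Leaving out each library in turn, without the block, called 0 to 0 genes. There, the lone library of a colour is assumed to vary like the others. Below the worth of 3 counts per library (0.201 to 0.319 CPM) a level was not detectable.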
